A study of Homo sapiens with 30 samples.

Results

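The DUSP, Sprouty and SPRED inhibitors of ERK signalling were followed in T47D breast cancer cells given siRNA to single subunits of NELF, the negative elongation factor. The 10 members are the genes DUSP1, DUSP4, DUSP5, DUSP6, DUSP10, SPRY1, SPRY2, SPRY4, SPRED1 and SPRED2, a list set by name. The list was chosen with earlier results of these data known. Counts of called members are therefore no independent test against the shares of all clusters. Each member was found by its platform symbol as 1 transcript cluster of the gene-level table, so that 10 of 10 were measured among 22011 clusters. T47D is an established line from a luminal breast tumour. The groups were cells transfected with siRNA to 1 subunit, named siNELF-A, siNELF-B, siNELF-C or siNELF-E after it, and cells given siControl, an siRNA against luciferase that has no human target. All received 10 nM siRNA, fresh medium after 48 hours and another 48 hours of growth. There were 3 Affymetrix exon arrays in each of the 5 groups, 15 in all. The series text speaks of technical repeats and does not say whether they came from separate cultures, so every p-value below measures only the spread between these arrays, which may be technical.

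ERK is the last kinase of the cascade that runs from growth factor receptors through RAS and RAF. Active ERK switches on the genes of its own inhibitors, which return the cascade to its resting state. Dual-specificity phosphatases (DUSPs) remove the activating phosphates from ERK and related kinases, in the nucleus (DUSP1, DUSP4, DUSP5) or in the cytoplasm (DUSP6). Sprouty and SPRED proteins act above ERK, between the receptor and RAF. NELF holds RNA polymerase II close to the start of many genes, rapidly inducible ones among them, and NELF-E carries its RNA recognition domain.

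Values are log2 robust multi-array average (RMA) values, and they are not compared between genes. Array correlations within a group were 0.9836 to 0.9895, except in siNELF-B, where they were 0.9172 to 0.9729. Against the siControl arrays siNELF-B replicate 2 had a mean r of 0.9845 and replicate 1 of 0.9712, both above the 0.945 and 0.9621 within their own group, and siNELF-B replicate 3 had the narrowest interquartile range (3.12, with 3.57 to 4.12 on the other arrays). Counts of called members are repeated with siNELF-B replicates 2 and 3 left out. These arrays were picked from the same data, and replicate 2 was the siNELF-B array most like siControl. Leaving it out therefore favours siNELF-B calls, and calls gained that way are no independent support. The siRNA targets were measured where the platform names them. NELFCD, the gene of NELF-C, was 10.7-fold lower with siNELF-C (adjusted p = 1.67e-05), and NELFE fell 6.1-fold with siNELF-E over the median of its 15 probe sets (adjusted p = 2.49e-05). The NELFA change of -0.61 on the log2 scale with siNELF-A, over the median of 15 probe sets, did not pass (adjusted p = 0.176), and NELFB was not analysed here. NELFCD, over the median of its 26 probe sets, changed by -0.63 with siNELF-A (adjusted p = 0.343) and -0.71 with siNELF-B (0.126). Its gene-level cluster was called lower with siNELF-A without siNELF-B replicate 3 (-0.66, adjusted p = 0.0448), and with siNELF-B without siNELF-B replicate 2 (-0.98, 0.00352). By means over all 15 arrays, all 9 luminal markers lay above the 40th percentile of clusters (3.901). TFF1 was under that level with siNELF-A (3.618) and siNELF-C (3.885). The oestrogen receptor gene ESR1, 1 of these markers, was called lower in each knockdown (6.48 with siNELF-A, 6.80 with siNELF-B, 6.32 with siNELF-C and 6.62 with siNELF-E, against 7.69 with siControl). Its part in the results was not tested. Of the markers of other cells, again by means over all 15 arrays, PTPRC, CD3E, LYZ, PECAM1, TEK, VIM and ZEB1 lay below the 25th percentile. KRT14, COL1A1, FN1 and CD68 lay above the 40th, though FN1 was under it with siNELF-A (3.738).

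The inhibitors did not move as a block. In siNELF-E cells DUSP6, SPRY2 and SPRED1 fell 2.19-, 2.69- and 2.13-fold, while DUSP10 rose 2.2-fold. DUSP6 fell 1.59-fold and SPRED1 1.75-fold in siNELF-B cells, and DUSP4 fell 1.87-fold in siNELF-A cells. No member was called in siNELF-C cells, where DUSP6 averaged 5.0, against 4.6 with siControl, and SPRED1 4.2, against 4.13. Calls required 1.5-fold or more and a limma p-value under 0.05 once adjusted over every cluster (Benjamini-Hochberg). Of the 10 members, 1 was called with siNELF-A, beside 3.32% of all clusters; 2 with siNELF-B, beside 4.39%; 0 with siNELF-C, beside 6.22%; and 4 with siNELF-E, beside 5.48%. By direction, clusters called lower made up 2.83% with siNELF-A, 4.19% with siNELF-B, 5.3% with siNELF-C and 4.04% with siNELF-E, and clusters called higher 0.495% with siNELF-A, 0.204% with siNELF-B, 0.922% with siNELF-C and 1.44% with siNELF-E. The siNELF-C count of 0 came with 3 members at an unadjusted p below 0.05 (DUSP1, DUSP6 and SPRED2), and with 0 to 2 calls under the other settings tried. All 4 comparisons share the 3 siControl arrays, and fewer cells expressing a gene cannot be told apart from less RNA per cell.

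**Figure D1:**
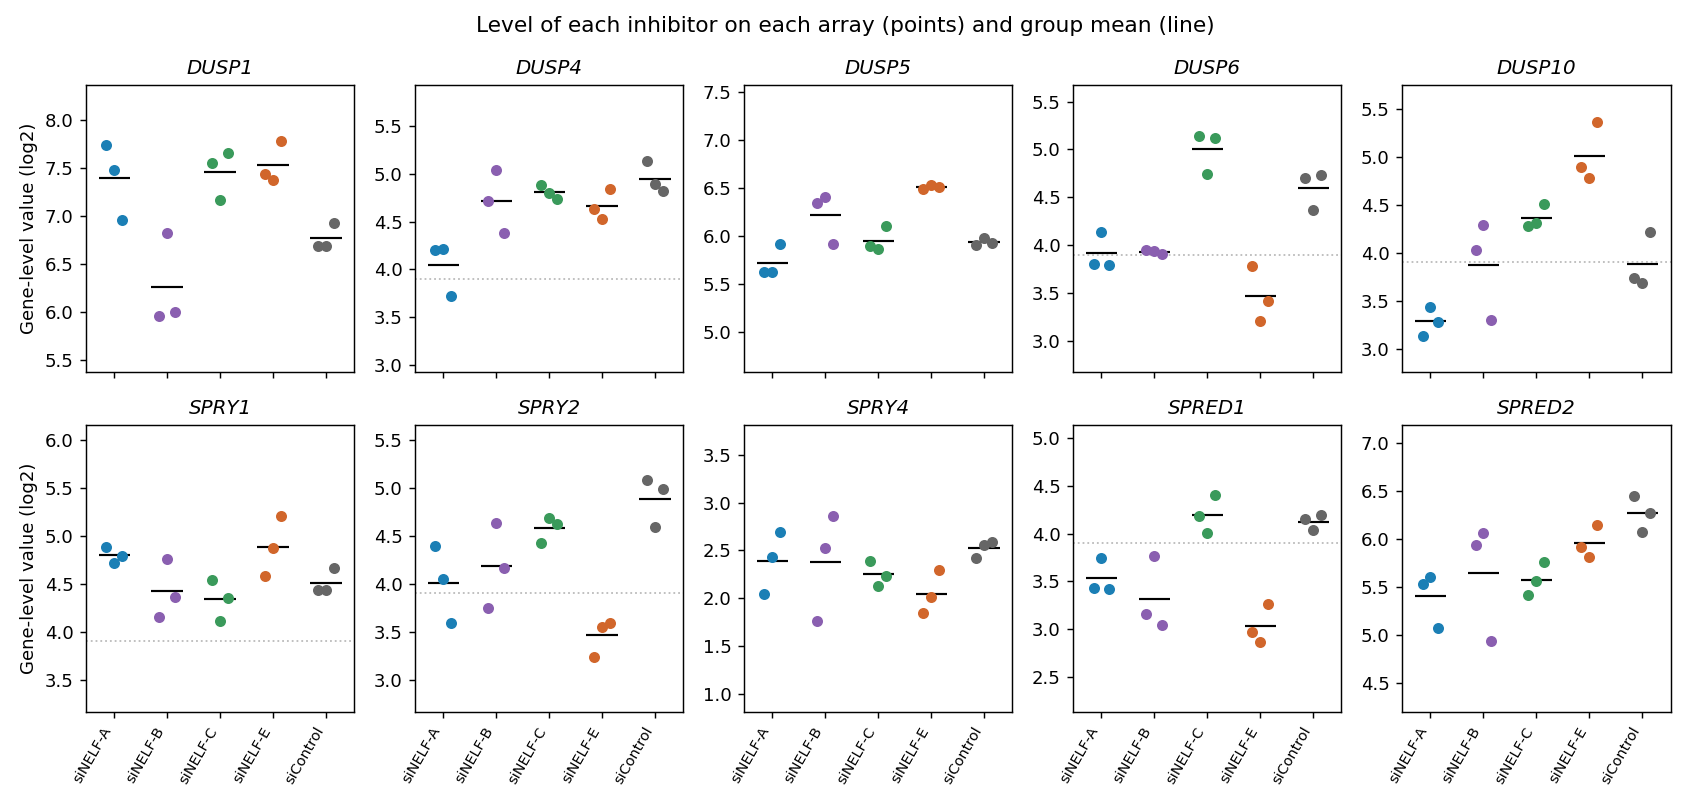
Gene-level log2 value of each inhibitor (y axis, 3 log2 units in every panel) on each of the 15 arrays, by siRNA (x axis). Points are arrays, black lines group means, and the dotted line is the 40th percentile of cluster means (3.901); DUSP6, SPRY2 and SPRED1 are lowest in siNELF-E, whereas DUSP10 is highest there.

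Median changes of the 10 members were -0.59 with siNELF-A (-0.03 over all clusters), -0.37 with siNELF-B (-0.14), -0.06 with siNELF-C (-0.08) and -0.30 with siNELF-E (-0.02). Averaged over the 4 knockdowns, the SPRY2 change was -0.83 (SE 0.19, 1.78-fold, adjusted p = 0.0236) and the SPRED1 change -0.60 (SE 0.15, 1.52-fold, adjusted p = 0.0349), beside 4.81% of clusters called. Neither average call was stable. SPRY2 lost it without siControl replicate 1 (adjusted p = 0.142) or 3 (0.154), and SPRED1 in 16 of 24 alternatives, including each siControl array left out (0.0981 to 0.191). Without siNELF-B replicates 2 and 3, called members numbered 6 with siNELF-A (10.3% of all clusters), 3 with siNELF-B (19.2%), 2 with siNELF-C (17.1%), 5 with siNELF-E (10.7%) and 2 on average (10.4%). The lone siNELF-B array left is then taken to vary like the arrays of the other groups. In that fit siNELF-A had DUSP4, DUSP6, DUSP10, SPRY2, SPRED1 and SPRED2 lower, siNELF-B had SPRY2, SPRY4 and SPRED1 lower, siNELF-C had DUSP1 higher and SPRED2 lower, and siNELF-E had DUSP1 and DUSP10 higher and DUSP6, SPRY2 and SPRED1 lower.

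**Figure D2:**
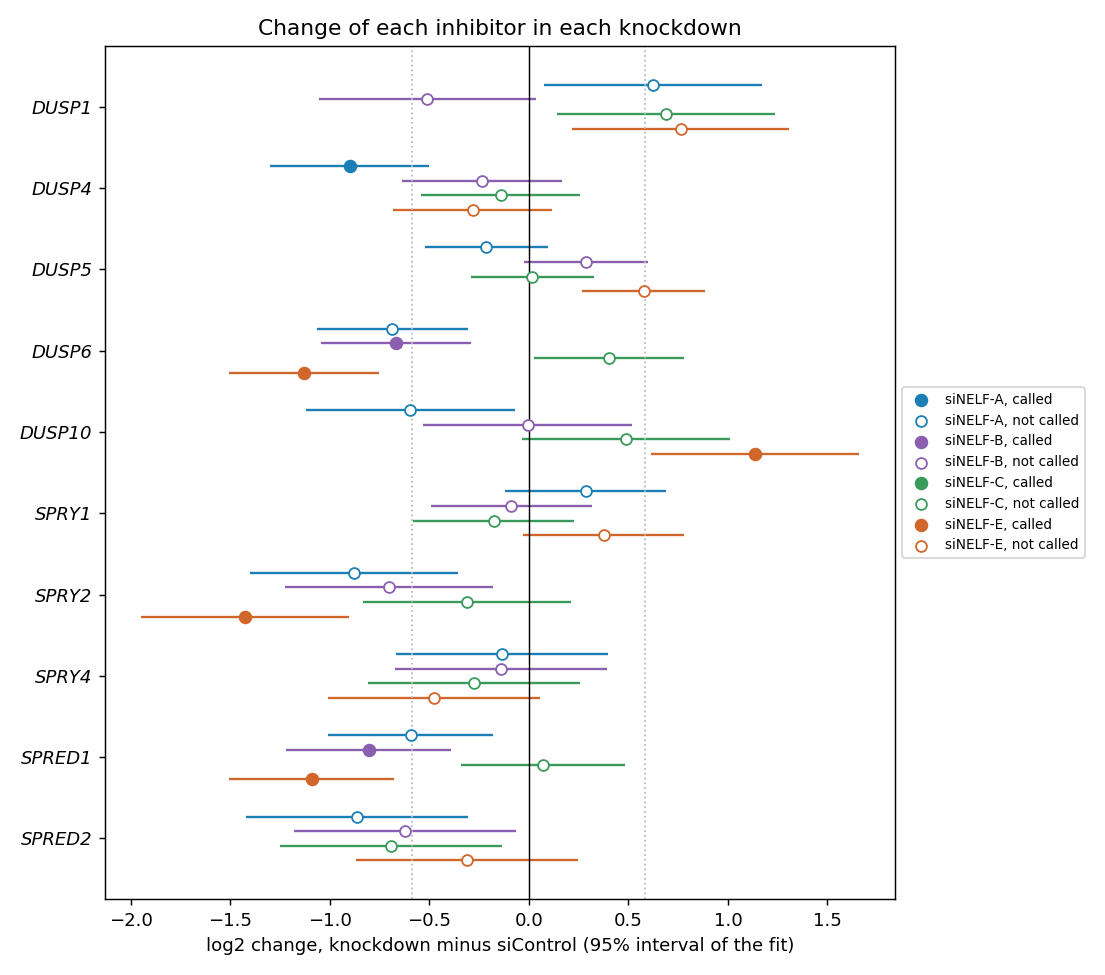
Log2 change of each inhibitor (rows) in each knockdown minus siControl (x axis), with 95% intervals of the limma fit to 3 arrays a group. Filled points were called, and dotted lines mark 1.5-fold; the 4 filled siNELF-E points are DUSP6, DUSP10, SPRY2 and SPRED1, and DUSP10 alone of them lies to the right of 0.

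The promoters of these 4 genes and of DUSP1, an immediate early gene whose level differed between knockdowns, are printed so that the genes that fell can be set beside those that did not. Each is 300 bases, 250 before and 50 after a RefSeq start on build GRCh38.p14, read 5′ to 3′ on the gene's strand. They lie at chr12:89352452-89352751 (DUSP6, minus strand), chr13:80341077-80341376 (SPRY2, minus, the most upstream of 3 starts), chr15:38252586-38252885 (SPRED1, plus), chr1:221742040-221742339 (DUSP10, minus, the most upstream of 2 starts) and chr5:172771146-172771445 (DUSP1, minus). Capitals mark matches, on either strand, to the TATA box (TATAAA), the cyclic AMP response element (TGACGTCA), the AP-1 site (TGANTCA), the ETS core (CCGGAA), the CCAAT box (CCAAT) and the GC box (GGGCGG).
DUSP6: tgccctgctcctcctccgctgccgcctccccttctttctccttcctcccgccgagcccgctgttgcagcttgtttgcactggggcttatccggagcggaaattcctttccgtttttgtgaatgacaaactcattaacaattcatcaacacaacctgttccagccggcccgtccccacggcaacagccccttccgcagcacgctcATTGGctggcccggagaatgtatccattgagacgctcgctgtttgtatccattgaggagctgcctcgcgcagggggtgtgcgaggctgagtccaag
SPRY2: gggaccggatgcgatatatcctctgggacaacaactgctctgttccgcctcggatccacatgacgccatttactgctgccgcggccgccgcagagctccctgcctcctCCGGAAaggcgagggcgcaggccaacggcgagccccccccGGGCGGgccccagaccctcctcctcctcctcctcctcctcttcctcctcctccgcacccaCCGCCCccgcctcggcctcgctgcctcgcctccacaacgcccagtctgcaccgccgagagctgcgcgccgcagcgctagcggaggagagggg
SPRED1: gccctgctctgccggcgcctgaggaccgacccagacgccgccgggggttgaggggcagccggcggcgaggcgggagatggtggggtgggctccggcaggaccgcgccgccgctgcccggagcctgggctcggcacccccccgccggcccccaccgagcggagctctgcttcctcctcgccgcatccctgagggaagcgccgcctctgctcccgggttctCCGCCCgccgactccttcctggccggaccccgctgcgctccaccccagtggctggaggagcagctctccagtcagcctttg
DUSP10: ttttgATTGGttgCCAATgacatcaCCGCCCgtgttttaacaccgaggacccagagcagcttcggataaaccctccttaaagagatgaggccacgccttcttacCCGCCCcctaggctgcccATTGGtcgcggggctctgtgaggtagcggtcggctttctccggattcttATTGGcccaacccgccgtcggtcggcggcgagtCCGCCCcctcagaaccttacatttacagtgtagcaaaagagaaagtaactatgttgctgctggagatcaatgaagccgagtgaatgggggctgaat
DUSP1: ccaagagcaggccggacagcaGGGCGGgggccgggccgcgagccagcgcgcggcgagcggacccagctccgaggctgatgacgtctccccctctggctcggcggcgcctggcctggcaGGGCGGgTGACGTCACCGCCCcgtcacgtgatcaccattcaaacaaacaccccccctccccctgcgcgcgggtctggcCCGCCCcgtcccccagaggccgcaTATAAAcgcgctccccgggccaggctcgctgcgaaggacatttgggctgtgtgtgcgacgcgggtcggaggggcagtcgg
DUSP1 held 1 TATA box, 1 cyclic AMP response element and 4 GC boxes, 1 of which directly follows the response element on the printed strand, as CCGCCC. DUSP10 held 4 CCAAT boxes and 3 GC boxes. Among the genes that fell in siNELF-E cells, DUSP6 held 1 CCAAT box, SPRED1 held 1 GC box, and SPRY2 held 1 ETS core and 2 GC boxes. No TATA box, response element or AP-1 site was matched in these 3 windows. The counts depend on the start used. At its other start, not printed, DUSP10 held 0 CCAAT boxes and 1 GC box. The other SPRY2 starts held no ETS core, and 0 and 1 GC boxes. Of 35116 RefSeq promoters of this length, 11.5% hold the TATA box, 1.85% the response element, 7.71% the AP-1 site, 17.2% the ETS core, 34.6% the CCAAT box and 45.0% the GC box. A match is only a string of letters, and 8 of the 10 members had a promoter that was used. Guanine and cytosine made up 76.3% of the SPRED1 window, 71.0% of SPRY2, 58.3% of DUSP6, 55.0% of DUSP10 and 73.3% of DUSP1.

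The nuclear phosphatases each had a pattern of their own. DUSP1, induced within minutes by growth factors and stress and active on p38 and JNK as well as ERK, measured 7.74, 7.47 and 6.96 with siNELF-A, 5.95, 6.82 and 6.00 with siNELF-B, 7.55, 7.16 and 7.65 with siNELF-C and 7.44, 7.37 and 7.78 with siNELF-E, against 6.69, 6.68 and 6.93 with siControl (cluster 2887309). All siNELF-A, all siNELF-C and all siNELF-E arrays lay above every siControl array, and siNELF-B overlapped them. The changes of 0.62 with siNELF-A (adjusted p = 0.223), 0.69 with siNELF-C (0.116) and 0.76 with siNELF-E (0.113) did not pass. They passed after quantile normalization (0.81, 1.05 and 0.89; adjusted p = 0.0137, 0.00228 and 0.0047), and those of siNELF-C and siNELF-E also without siNELF-B replicate 2 (0.0322 and 0.0282). The siNELF-B change of -0.51 missed the threshold as well (adjusted p = 0.194), and was called with siNELF-B replicate 2 left out (-0.79, adjusted p = 0.0138). With array weights the siNELF-B change was -0.80, in a fit that weighted siNELF-B replicate 1 at 182 and replicates 2 and 3 at 0.0965 and 0.0524. Over all alternatives it ran from -0.82 without siNELF-B replicates 2 and 3 to 0.03 with the arrays' interquartile range as a covariate (adjusted p up to 0.979).

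DUSP4, an ERK phosphatase of the nucleus, measured 4.20, 4.22 and 3.72 with siNELF-A, 4.72, 5.04 and 4.38 with siNELF-B, 4.88, 4.8 and 4.73 with siNELF-C and 4.63, 4.53 and 4.84 with siNELF-E, against 5.13, 4.89 and 4.82 with siControl (cluster 3129731). The siNELF-A arrays were the lowest 3 of the 15. DUSP4 fell 1.87-fold there (log2 change -0.90, SE 0.18, adjusted p = 0.0187). That call was lost without siControl replicate 1, 2 or 3 (adjusted p = 0.0917, 0.0534 and 0.0547) and without siNELF-A replicate 3 (0.0902). Changes of -0.23 with siNELF-B (adjusted p = 0.407), -0.14 with siNELF-C (0.658) and -0.28 with siNELF-E (0.531) did not pass.

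DUSP5, a nuclear phosphatase specific to ERK, measured 5.62, 5.62 and 5.91 with siNELF-A, 6.34, 6.41 and 5.91 with siNELF-B, 5.89, 5.86 and 6.10 with siNELF-C and 6.49, 6.53 and 6.51 with siNELF-E, against 5.90, 5.98 and 5.92 with siControl (cluster 3263743). The siNELF-E arrays were the highest 3 of the 15. The change in siNELF-E was 0.58 (SE 0.14, adjusted p = 0.0316), 1.49-fold and so just short of the fold threshold. It passed that threshold after median centring (0.68, adjusted p = 0.00417), 75th percentile centring (0.71, adjusted p = 0.014) and quantile normalization (0.68, adjusted p = 0.00981). In 21 of 25 alternatives it stayed uncalled, with an adjusted p up to 0.316. Changes were -0.21 with siNELF-A (adjusted p = 0.483), 0.29 with siNELF-B (0.197) and 0.02 with siNELF-C (0.951). The siNELF-B change was called too after 75th percentile centring (0.75, adjusted p = 0.0286) and quantile normalization (0.73, adjusted p = 0.0193).

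DUSP6, the cytoplasmic phosphatase specific to ERK, had the smallest p of the 10 in an F test over the 4 knockdowns (adjusted p = 0.000664). It measured 3.81, 4.14 and 3.80 with siNELF-A, 3.95, 3.94 and 3.91 with siNELF-B, 5.14, 4.75 and 5.12 with siNELF-C and 3.79, 3.20 and 3.42 with siNELF-E, against 4.70, 4.36 and 4.74 with siControl (cluster 3464860). Every siNELF-A, siNELF-B and siNELF-E array lay below every siControl array, and every siNELF-C array lay above them. The fall in siNELF-E was 2.19-fold (log2 change -1.13, SE 0.17, 95% interval -1.51 to -0.75, adjusted p = 0.00178), and it was called in all 25 alternatives (adjusted p up to 0.0134). In siNELF-B the change was -0.67 (SE 0.17, adjusted p = 0.0489). This call was lost in 22 of 25 alternatives, among them every siControl array left out (0.0775 to 0.174) and 75th percentile centring (-0.20, adjusted p = 0.495). The siNELF-A change was -0.69 and fell just short (adjusted p = 0.0503), passing without siNELF-B replicate 2 (0.0319) or 3 (0.0247) or without siNELF-E replicate 1 (0.0427). The siNELF-C change of 0.40 did not pass (adjusted p = 0.176). Its siNELF-E mean of 3.47 lies under the 40th percentile of cluster means.

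DUSP10, whose preferred substrates are JNK and p38 rather than ERK, went the other way in siNELF-E cells. It measured 3.13, 3.44 and 3.28 with siNELF-A, 4.02, 4.29 and 3.30 with siNELF-B, 4.27, 4.31 and 4.51 with siNELF-C and 4.89, 4.78 and 5.37 with siNELF-E, against 3.73, 3.68 and 4.22 with siControl (cluster 2457261). All siNELF-A arrays lay below the siControl arrays, all siNELF-C and siNELF-E arrays lay above them, and siNELF-B overlapped them. The siNELF-E rise was 2.2-fold (log2 change 1.14, SE 0.24, 95% interval 0.61 to 1.66, adjusted p = 0.0134). The call was lost without siControl replicate 1 (adjusted p = 0.0621) or 2 (0.065) or siNELF-E replicate 3 (0.0703). The change of 0.49 with siNELF-C did not pass (adjusted p = 0.23), except after 75th percentile centring (0.84, adjusted p = 0.00956) or with the arrays' interquartile range as a covariate (0.87, adjusted p = 0.0145). In siNELF-A the change was -0.59 (adjusted p = 0.226), between levels both under the 40th percentile, and in siNELF-B it was -0.01 (0.989).

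Sprouty proteins bind adaptors and ubiquitin ligases below growth factor receptors and damp the signal to RAS and RAF. SPRY2 measured 4.40, 4.05 and 3.60 with siNELF-A, 3.75, 4.64 and 4.17 with siNELF-B, 4.42, 4.69 and 4.62 with siNELF-C and 3.24, 3.55 and 3.60 with siNELF-E, against 5.09, 4.60 and 4.99 with siControl (cluster 3519309). All siNELF-A and siNELF-E arrays lay below the siControl arrays, while siNELF-B and siNELF-C overlapped them. In siNELF-E cells SPRY2 fell 2.69-fold (log2 change -1.43, SE 0.24, 95% interval -1.95 to -0.90, adjusted p = 0.00326). The call held in all 25 alternatives, with an adjusted p up to 0.0216. Changes of -0.88 with siNELF-A (adjusted p = 0.0702) and -0.70 with siNELF-B (0.0875) did not pass. With siNELF-B replicate 2 left out both did (adjusted p = 0.0226 for siNELF-A and 0.00785 for siNELF-B), and siNELF-A did so with siNELF-B replicate 3 left out too (0.038). In siNELF-C the change was -0.31 (adjusted p = 0.44).

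SPRY1 and SPRY4, the other Sproutys on the list, were not called in any knockdown when all 15 arrays were fitted. SPRY1 means were 4.8 ± 0.08 with siNELF-A, 4.42 ± 0.30 with siNELF-B, 4.34 ± 0.21 with siNELF-C and 4.89 ± 0.31 with siNELF-E, against 4.51 ± 0.13 with siControl (SD, n = 3 each, cluster 2742224). Its changes ran between -0.18 in siNELF-C and 0.38 in siNELF-E (adjusted p = 0.581 and 0.351). SPRY4 (cluster 2879105) averaged 2.39 ± 0.33 with siNELF-A, 2.38 ± 0.56 with siNELF-B, 2.25 ± 0.13 with siNELF-C and 2.05 ± 0.23 with siNELF-E, against 2.53 ± 0.09 with siControl (SD, n = 3 each). All of its levels lay below the 40th percentile of cluster means, so no fold is given. With siNELF-B it was called lower without siNELF-B replicates 2 and 3 (log2 change -0.76) and with array weights (-0.76). Both fits rest on siNELF-B replicate 1, whose weight was 182, against 0.0965 and 0.0524 for replicates 2 and 3.

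SPRED proteins bring neurofibromin, the RAS-inactivating product of NF1, to the membrane. SPRED1 measured 3.43, 3.75 and 3.42 with siNELF-A, 3.16, 3.76 and 3.04 with siNELF-B, 4.18, 4.01 and 4.41 with siNELF-C and 2.97, 2.87 and 3.26 with siNELF-E, against 4.15, 4.04 and 4.19 with siControl (cluster 3589141). Every siNELF-A, siNELF-B and siNELF-E array lay below every siControl array, and siNELF-C overlapped them. The fall in siNELF-E was 2.13-fold (log2 change -1.09, SE 0.19, 95% interval -1.5 to -0.68, adjusted p = 0.00415), called in each of the 24 alternatives that kept the gene (adjusted p up to 0.0245). The siNELF-B fall of 1.75-fold (-0.80, SE 0.19, adjusted p = 0.0395) lost its call in 17 of 24 alternatives, among them every siControl array left out (0.0878 to 0.151) and 75th percentile centring (-0.34, adjusted p = 0.116). The siNELF-A change of -0.59 missed the threshold (adjusted p = 0.122) and met it once siNELF-B replicate 2 (0.0246) or 3 (0.046) was left out. The siNELF-C change was 0.07 (95% interval -0.34 to 0.49, adjusted p = 0.835). SPRED1 levels in siNELF-A, siNELF-B and siNELF-E lay under the 40th percentile.

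SPRED2, its paralogue, measured 5.54, 5.60 and 5.07 with siNELF-A, 5.94, 6.06 and 4.94 with siNELF-B, 5.41, 5.56 and 5.76 with siNELF-C and 5.92, 5.81 and 6.15 with siNELF-E, against 6.45, 6.08 and 6.27 with siControl (cluster 2556752). Arrays of siNELF-A, siNELF-B and siNELF-C lay below all siControl arrays, and siNELF-E overlapped them. Changes of -0.87 with siNELF-A (adjusted p = 0.0938), -0.62 with siNELF-B (0.134), -0.69 with siNELF-C (0.122) and -0.31 with siNELF-E (0.662) did not pass. Without siNELF-B replicate 3 the siNELF-A (adjusted p = 0.00542) and siNELF-C (0.0113) changes passed, and without siNELF-B replicate 2 the siNELF-A (0.0411) and siNELF-B (0.024) changes did.

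The knockdowns were then compared with each other, which tests whether the level of an inhibitor differed between the siRNA groups. A difference between subunits cannot be told apart from unequal depletion, since the NELFA change did not pass and NELFB was not analysed. Of 60 differences (10 members, 6 pairs), 14 were called, in 7 of the 10 members; SPRY1, SPRY4 and SPRED2 had none. The pair siNELF-B minus siNELF-A had 1 of the 10 (4.28% of all clusters), siNELF-C minus siNELF-A had 3 (2.87%), siNELF-E minus siNELF-A had 2 (4.05%), siNELF-C minus siNELF-B had 3 (2.14%), siNELF-E minus siNELF-B had 2 (6.9%) and siNELF-E minus siNELF-C had 3 (5.18%).

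Between siNELF-E and siNELF-C cells 3 inhibitors were called, and each was lower in siNELF-E. DUSP5 was higher in siNELF-E (0.56, adjusted p = 0.0401) but at 1.47-fold was short of the fold threshold. DUSP10 was also higher in siNELF-E (0.65, adjusted p = 0.156), and was called without siNELF-B replicate 3 (0.0319). DUSP6 was 2.89-fold lower (log2 difference -1.53, SE 0.17, adjusted p = 0.000353) and SPRED1 2.24-fold lower (-1.16, SE 0.19, adjusted p = 0.00355), both under every alternative run. SPRY2 was 2.17-fold lower (-1.12, SE 0.24, adjusted p = 0.018), a call lost without siNELF-C replicate 2 (0.0802) or 3 (0.0646), and without siNELF-E replicate 1 (0.0775) or 2 (0.0524). DUSP6 was also higher in siNELF-C than in siNELF-A (difference 1.09, adjusted p = 0.0051) and than in siNELF-B (1.07, adjusted p = 0.00725), in all 25 alternatives each. In order of level DUSP6 thus ran siNELF-C, siControl, siNELF-B, siNELF-A and siNELF-E. Of the neighbours in that order, siControl and siNELF-B differed by the test at an adjusted p of 0.0489, and siNELF-C from siControl, siNELF-B from siNELF-A and siNELF-A from siNELF-E did not pass.

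DUSP10 differed most between siNELF-E and siNELF-A, by 3.32-fold (difference 1.73, SE 0.24, adjusted p = 0.00139), in all 25 alternatives. DUSP5 was 1.73-fold higher in siNELF-E than in siNELF-A (0.79, SE 0.14, adjusted p = 0.00696), also in all 25. DUSP10 was higher in siNELF-C than in siNELF-A (1.08, adjusted p = 0.031) and in siNELF-E than in siNELF-B (1.14, adjusted p = 0.0159). The first of these was lost without any 1 siNELF-A or siNELF-C array (adjusted p = 0.0811 to 0.12), and the second without siNELF-E replicate 3 (0.0759). DUSP1 was lower in siNELF-B than in siNELF-A (difference -1.13, adjusted p = 0.0265), and it was higher than in siNELF-B with siNELF-C (1.2, adjusted p = 0.0288) and with siNELF-E (1.27, adjusted p = 0.0116). All 3 DUSP1 calls were lost without siNELF-B replicate 1 (adjusted p = 0.114, 0.123 and 0.0555). The first was also lost without siNELF-A replicate 1 or 2 (0.109 and 0.107), the second without siNELF-C replicate 1 or 3 (0.126 and 0.12), and the third without siNELF-E replicate 3 (0.0581). SPRED1 was higher in siNELF-C than in siNELF-B (0.88, adjusted p = 0.0327) and DUSP4 higher in siNELF-C than in siNELF-A (0.76, adjusted p = 0.0463), calls lost in 10 of 24 and 16 of 25 alternatives.

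**Figure D3:**
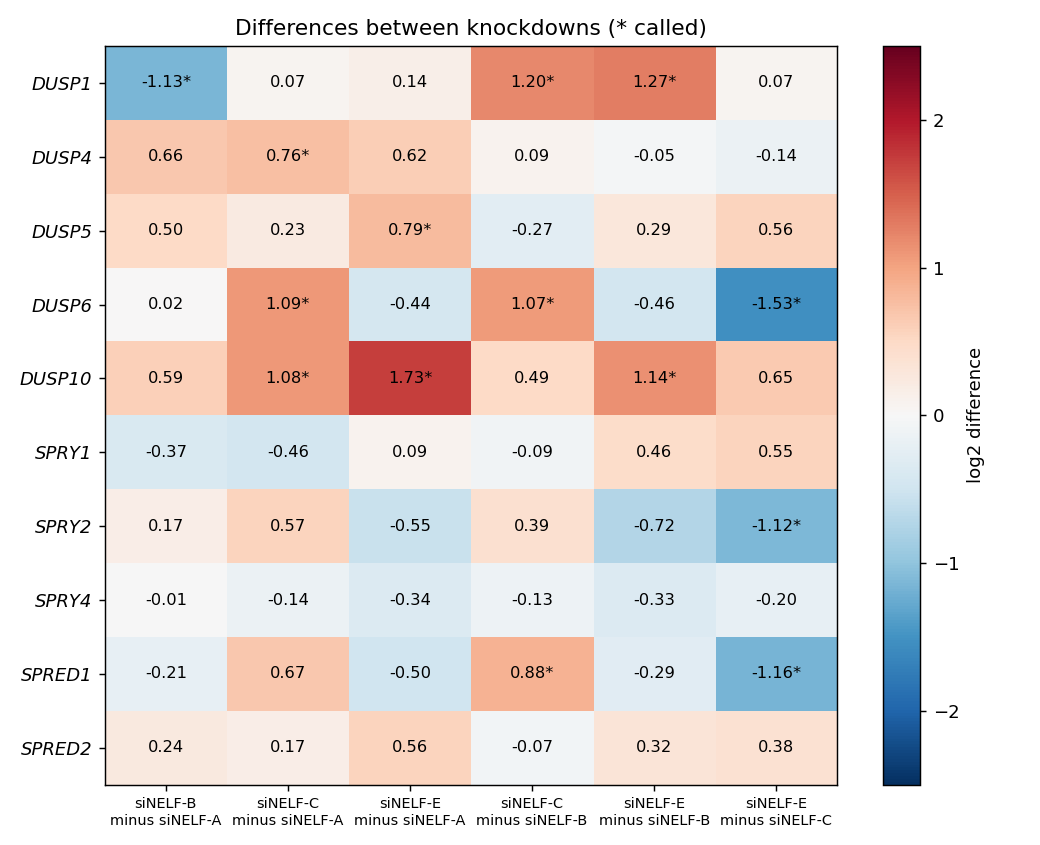
Log2 difference of each inhibitor (rows) between pairs of knockdowns (columns, first named minus second), in red where higher and blue where lower in the first named. Asterisks mark the 14 called differences; the deepest blue is DUSP6 in siNELF-E minus siNELF-C (-1.53) and the deepest red DUSP10 in siNELF-E minus siNELF-A (1.73).

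Each gene is tiled by several exon-level probe sets, 101 over the 10 members, which show whether a change runs along the transcript. In siNELF-E cells SPRED1 was lower at 15 of 15 probe sets (median -1.14, between -2.63 and -0.10) and DUSP10 higher at 10 of 10 (median 1.36, between 0.11 and 2.28). DUSP5 was higher at 10 of 10 (median 0.58), SPRY2 lower at 5 of 6 (median -1.64) and DUSP6 lower at 5 of 6 (median -1.17). DUSP1 was higher at 7 of 7 with siNELF-A (median 0.59), with siNELF-C (0.64) and with siNELF-E (0.69), and lower at 6 of 7 with siNELF-B (-0.43). SPRED2 was lower at 18 of 20 with siNELF-A, at 16 with siNELF-B, at 17 with siNELF-C and at 18 with siNELF-E. DUSP4 was lower at 10 of 12 in siNELF-A. Probe sets of a gene share its transcript and are not replicates.

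**Figure D4:**
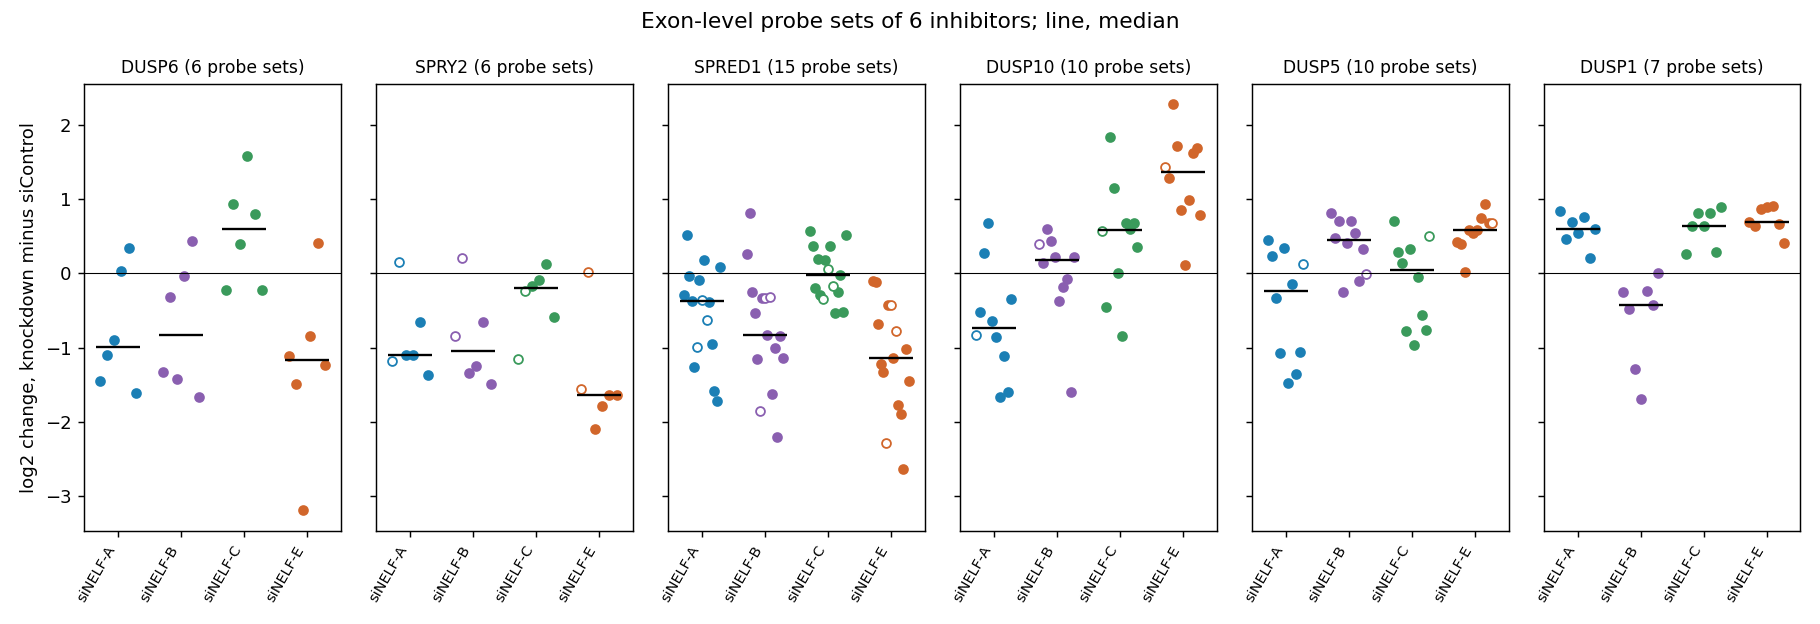
Log2 change of each exon-level probe set (points) of 6 inhibitors in each knockdown minus siControl, with the median as a line; open points lie below the 25th percentile of probe set means. All 15 SPRED1 probe sets lie below 0 and all 10 DUSP10 probe sets above 0 in siNELF-E.

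Taken singly, 7 member probe sets were called against siControl over the 4 knockdowns, 6 of them in siNELF-E. Of all 287329 probe sets, 0.618% were called with siNELF-A, 0.164% with siNELF-B, 1.15% with siNELF-C and 1.6% with siNELF-E. The largest change was at DUSP6 probe set 3464877, which measured 3.39, 3.34 and 3.22 in siNELF-E cells, against 6.78, 6.15 and 6.59 in siControl (log2 change -3.19, SE 0.35, adjusted p = 0.000543, 9.13-fold). In siNELF-C cells that probe set measured 6.83, 6.84 and 7.03. Another DUSP6 probe set, 3464881, measured 6.58, 6.61 and 5.90 in siNELF-E cells, against 5.99, 6.08 and 5.78 in siControl (change 0.41, adjusted p = 0.843). SPRY2 probe set 3519325 measured 3.60, 4.11 and 3.74 in siNELF-E cells, against 5.98, 5.48 and 6.26 in siControl (-2.09, adjusted p = 0.0118), and DUSP4 probe set 3129739 measured 4.0, 3.78 and 2.44 in siNELF-A cells, against 5.72, 5.78 and 6.13 (-2.47, adjusted p = 0.0135). The other 4 were DUSP10 probe set 2457264 (2.28, adjusted p = 0.0337) and SPRED1 probe sets 3589165, 3589178 and 3589179 (-2.29, -1.89 and -2.63; adjusted p = 0.00603, 0.0335 and 0.0347), all in siNELF-E; the first of the SPRED1 probe sets lies below the 25th percentile of probe set means. With any 1 array left out, the number of member probe sets called lay between 2 and 37.

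Exon usage, which sets each probe set against the rest of its gene, went through limma's diffSplice function, since the series also concerns alternative transcript starts. The filter on dim features kept 58 of the 101 probe sets, from DUSP1, DUSP4, DUSP5, SPRY1, SPRY2 and SPRED2. None was called in the 4 knockdowns, and 20 of 232 tests had an unadjusted p below 0.05 (smallest adjusted p = 0.104). Over all 154212 probe sets tested the called shares were 0.209% with siNELF-A, 0.84% with siNELF-B, 0.543% with siNELF-C and 0.124% with siNELF-E. Dropping the filter, an alternative added with the data in view, left 1 of 404 tests called, DUSP6 probe set 3464877 in siNELF-E (relative change -2.34, adjusted p = 0.0146). Relative to the rest of DUSP6, probe set 3464881 stood at 1.98 (adjusted p = 0.074). Positions of probe sets within the genes were not used here.

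Across the 15 arrays DUSP6 and SPRED1 had the highest correlation of any 2 members (Pearson r = 0.901), followed by SPRY2 with SPRED1 (0.837), DUSP5 with DUSP10 (0.79), DUSP6 with SPRY2 (0.741) and DUSP4 with SPRED2 (0.732). At the other end lay SPRY1 with DUSP6 (-0.583) and DUSP5 with SPRY2 (-0.52). These values describe arrays that fall into 5 groups and share labelling and scaling, so no p-value is given. For the 4 members that varied most by the F test over the knockdowns, the most similar patterns were sought among 9205 other named clusters at or above the 40th percentile. Nearest to DUSP6 were ANTXR1, SPTSSB and AP2B1 (r = 0.914, 0.913 and 0.907). DUSP10 was closest to CAPN2, NAALADL2 and LMO4 (0.954, 0.941 and 0.926), SPRED1 to KATNAL1, SPIN1 and WDR6 (0.96, 0.951 and 0.945), and SPRY2 to JMJD8, SEPHS1 and WDR6 (0.939, 0.938 and 0.906). SPTSSB, for example, averaged 4.90 with siNELF-A, 4.67 with siNELF-B, 7.34 with siNELF-C and 4.33 with siNELF-E, against 6.01 with siControl, the order of DUSP6 with siNELF-A and siNELF-B exchanged.

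Of 22 listed RAS-ERK cascade genes, 12 were measured, of which 1 was called with siNELF-A, 3 with siNELF-B, 1 with siNELF-C and 2 with siNELF-E, each of them lower. Over all clusters most calls were lower too, at 2.83% of clusters with siNELF-A, 4.19% with siNELF-B, 5.3% with siNELF-C and 4.04% with siNELF-E. PTPN11, the phosphatase SHP2 that passes receptor signals to RAS, fell in siNELF-E (log2 change -1.68, SE 0.22, adjusted p = 0.000556) and in siNELF-B (-1.27, adjusted p = 0.0139, lost without siControl replicate 1 or 3, 0.0555 and 0.077). The RAF kinase ARAF fell in siNELF-A (-1.02, SE 0.17, adjusted p = 0.00527). The adaptor GRB2 fell in siNELF-B (-1.37, adjusted p = 0.0175) and siNELF-C (-1.01, adjusted p = 0.0326), and the adaptor SHC1 in siNELF-E (-0.76, adjusted p = 0.0139). Both GRB2 calls were lost without any 1 siControl array (adjusted p = 0.0507 to 0.127), without siNELF-B replicate 1 (0.0777) for siNELF-B and without any 1 siNELF-C array for siNELF-C (0.0645 to 0.129). The SHC1 call was lost without siControl replicate 1 or 3 or siNELF-E replicate 1 or 2 (0.0563 to 0.0681). MAPK3, which encodes ERK1, was not called, with changes of -0.74 with siNELF-A, -0.69 with siNELF-B, -0.35 with siNELF-C and 0.01 with siNELF-E (adjusted p = 0.107 to 0.991); it was called lower with siNELF-A without siNELF-B replicates 2 and 3 (0.0392) and with siNELF-B without siNELF-B replicate 2 (-0.95, adjusted p = 0.00821). HRAS, a RAS gene, was not called in any of the 4, at -0.05 with siNELF-A, -0.34 with siNELF-B, -0.30 with siNELF-C and -0.29 with siNELF-E. List medians were -0.15 with siNELF-A, -0.56 with siNELF-B, -0.33 with siNELF-C and -0.09 with siNELF-E. Without siNELF-B replicates 2 and 3, calls in this list numbered 3 with siNELF-A (10.3% of all clusters), 3 with siNELF-B (19.2%), 1 with siNELF-C (17.1%) and 2 with siNELF-E (10.7%), each lower.

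Of 12 measured inhibitors outside the member list, 1 was called over the 4 knockdowns, the ubiquitin ligase CBL, lower in siNELF-A beside 2.83% of all clusters (-1.58, SE 0.31, adjusted p = 0.0156), a call lost without siControl replicate 1 or 3 or siNELF-A replicate 2 or 3 (0.0541 to 0.0786). NF1, with which SPRED1 acts, was not called, with log2 changes of -0.27 with siNELF-A, -0.77 with siNELF-B, 0.11 with siNELF-C and -0.28 with siNELF-E (adjusted p between 0.157 and 0.86), but was called lower with siNELF-B without siNELF-B replicate 2 (-1.11, adjusted p = 0.0181). The RAF inhibitor PEBP1 was not called, at 0.42 with siNELF-A, -0.10 with siNELF-B, -0.18 with siNELF-C and 0.40 with siNELF-E, except with siNELF-A after 75th percentile centring (0.64, adjusted p = 0.0393) and quantile normalization (0.60, adjusted p = 0.0376). Without siNELF-B replicates 2 and 3, calls among these inhibitors numbered 2 with siNELF-A (10.3% of all clusters), 1 with siNELF-B (19.2%), 3 with siNELF-C (17.1%) and 1 with siNELF-E (10.7%). Of 17 other dual-specificity phosphatases measured, DUSP26 was the 1 called, higher in siNELF-C (0.96, SE 0.16, adjusted p = 0.00527), beside 0.922% of all clusters, and so in all 19 settings tried. DUSP3 was not called, nor was STYX, except with siNELF-B without siNELF-B replicate 2 (-1.35, adjusted p = 0.000521) or without replicates 2 and 3 (-1.05, adjusted p = 0.00643). In the fit without both arrays, calls among these phosphatases numbered 3 with siNELF-A, 5 with siNELF-B, 3 with siNELF-C and 1 with siNELF-E, to be read against the same shares of all clusters.

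Transcripts known to depend on ERK went in both directions. Of 27 measured, 2 were called higher and 1 lower with siNELF-A, 1 higher and 1 lower with siNELF-B, 2 higher and 1 lower with siNELF-C, and 2 higher and 3 lower with siNELF-E. Shares of all clusters called higher and lower were 0.495% and 2.83% with siNELF-A, 0.204% and 4.19% with siNELF-B, 0.922% and 5.3% with siNELF-C, and 1.44% and 4.04% with siNELF-E. Medians were 0.08 with siNELF-A, -0.06 with siNELF-B, 0.06 with siNELF-C and -0.05 with siNELF-E. CITED2, a transcriptional coregulator, rose with siNELF-A (1.28, adjusted p = 0.004), with siNELF-C (1.70, adjusted p = 0.000622) and with siNELF-E (1.31, adjusted p = 0.0017), in all 19 settings each, and its change with siNELF-B was -0.07. CCND1, which encodes cyclin D1, fell in siNELF-E (-1.24, SE 0.17, adjusted p = 0.00066), in all 19 settings; its calls in siNELF-A (-0.71) and siNELF-B (-0.74) were kept in 8 and 7 of 19. IER3, an immediate early gene, fell in siNELF-E (-0.79, adjusted p = 0.00894). FOSL1, of the AP-1 family, rose in siNELF-C (1.05, adjusted p = 0.00863), a call lost without siControl replicate 3 (0.052), and in siNELF-B (0.90, adjusted p = 0.0308), a call kept in 12 of 19 settings. BHLHE40, a transcriptional repressor, was not called, at -0.77 with siNELF-A, -0.58 with siNELF-B, -0.42 with siNELF-C and 0.06 with siNELF-E. It was called lower with siNELF-A in 4 alternatives, among them siNELF-B replicate 2 (adjusted p = 0.0352) or 3 (0.0195) left out, and with siNELF-B without siNELF-B replicate 2 (-0.84, adjusted p = 0.0113). MYC was not called, at -0.07 with siNELF-A, -0.01 with siNELF-B, -0.48 with siNELF-C and -0.51 with siNELF-E. Without siNELF-B replicates 2 and 3, calls among these transcripts numbered 6 with siNELF-A (10.3% of all clusters), 2 with siNELF-B (19.2%), 5 with siNELF-C (17.1%) and 5 with siNELF-E (10.7%).

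**Figure D5:**
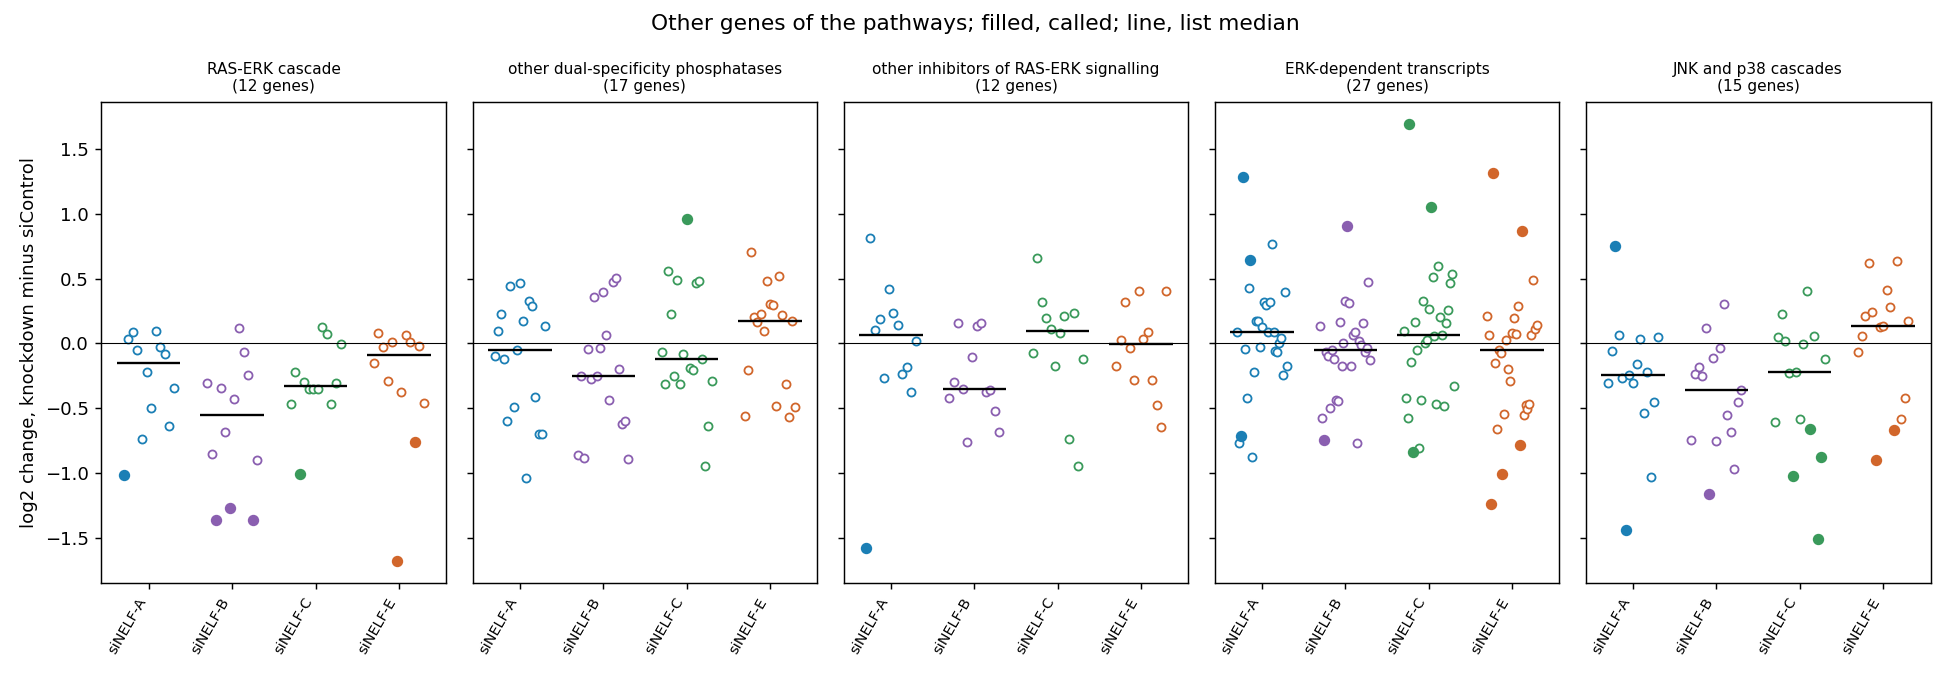
Log2 change of the measured genes of 5 pathway lists (panels) in each knockdown minus siControl, with list medians as lines and called genes filled. Called genes of the RAS-ERK cascade all lie below 0, whereas those of the ERK-dependent list lie on both sides.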

How the data were processed

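Per the labels, the deposited values are log2 RMA values that the authors made with the ArrayAssist software from core probe sets on build hg18; its version is not given in the sources used here. The same 15 arrays stand in a gene-level table (22011 clusters) and an exon-level table (287329 probe sets), and the values were used as deposited. Groups came from the siRNA labels, and every value column was used. Genes were named through the platform annotation, updated with a RefSeq table used for names: 14432 clusters carry 1 symbol, 2408 several and 5171 were not listed. RefSeq promoters (GRCh38.p14) gave the sequences.

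Tests used limma 3.58.1 in R 4.3.3. A means model of the 5 groups took in all 15 arrays (lmFit, eBayes), with Benjamini-Hochberg adjustment over all features, and calls needed an adjusted p below 0.05 and 1.5-fold. The number of arrays limits the precision, and no measure of background was used here. The fit was tested on simulated data with independent noise of equal spread on all arrays. That test does not cover the unequal spread of the siNELF-B arrays. No fold is given where both levels lie below 3.901, the 40th percentile of cluster means.

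The members and the pathway lists were chosen with earlier results of these data known. Of each pathway list, up to 4 called genes with the smallest adjusted p and the 2 brightest that were not called are named, with the 3 clusters closest by Pearson's r to each of 4 members. Alternatives were other scalings, array weights, the array spread as a covariate, a filter on dim clusters, another variance prior, exon-level medians, other fold thresholds, fits to 2 groups, a replicate block and leaving out arrays. NELFA and NELFE, with no gene-level cluster under 1 symbol, were measured as medians of their probe sets, a departure from the planned test.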

Additional observations from a re-analysis of the deposited data

How the results depend on the processing

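The siNELF-E calls of DUSP6 and SPRY2 held in all 25 alternatives and that of SPRED1 in all 24 that kept it. No called member changed sign. Other counts moved, here with the cause not tested. The share of all clusters called moved between settings too. A higher or lower count below is therefore not by itself a change particular to the inhibitors or lists. Leaving out siNELF-B arrays kept the siNELF-A, siNELF-C and siNELF-E log2 changes, but altered the estimate of spread that all groups share. For SPRY2 in siNELF-A the change stayed at -0.88 without siNELF-B replicates 2 and 3, and its SE went from 0.24 to 0.20. Called members in siNELF-A numbered 1, against 3 after 75th percentile centring, 2 after quantile normalization, 4 with the interquartile range as a covariate, 6 without siNELF-B replicates 2 and 3, 5 with array weights, 2 with dim clusters left out, 0 at a 2-fold threshold and 4 with only the 2 groups in the fit. In siNELF-B they numbered 2, against 0 with median centring, the interquartile range as a covariate, a 2-fold threshold or only 2 groups, 1 with 75th percentile centring, dim clusters left out or a trended robust prior, and 5 with array weights. In siNELF-C they numbered 0, against 1 with median centring or quantile normalization and 2 with 75th percentile centring, the interquartile range, siNELF-B replicates 2 and 3 left out, array weights or only 2 groups. In siNELF-E the count of 4 stayed within 1.5 times. The average of the knockdowns had 2, against 1 with median or 75th percentile centring, the interquartile range or dim clusters left out, and 0 at a 2-fold threshold. The settings for the differences between knockdowns, the pathway lists and the member probe sets, and the exon usage test with no filter at all, were chosen after seeing the data. Differences between knockdowns numbered 14, against 22 with 75th percentile centring and 22 with the interquartile range. Calls in the pathway lists numbered 31, against 63 without siNELF-B replicates 2 and 3, member probe sets called 7 against 35, and exon usage calls 0 against 5, with 1 when no filter on dim probe sets or genes was used. With single arrays left out the ranges were 0 to 5 in siNELF-A, 0 to 5 in siNELF-B, 0 to 1 in siNELF-C, 3 to 5 in siNELF-E, 0 to 3 on average, 9 to 20 for the differences, 15 to 73 for the lists, 2 to 37 for probe sets and 0 to 6 for exon usage.

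With the replicate number as a block, called members numbered 0 in siNELF-B and 1 on average, and differences between knockdowns 9; no other count of called members left 1.5 times its value under the block. The numbers name repeats only: deviations of same-numbered arrays correlated between -0.297 and 0.203 and were over 0.1 in 0, 1 and 2 of 10 pairs of groups for replicates 1, 2 and 3. The median change of all clusters on average was -0.08, and 0.07, 0.21 and 0.05 after median centring, 75th percentile centring and quantile normalization. Members called higher and lower in siNELF-E were then 3 and 3 under each of the 3 scalings, against 1 and 3. The array weights did not fully converge, and ran within siNELF-B from 0.0524 to 182. Low levels of SPRY4, SPRED1 and DUSP10, and of DUSP6 and SPRY2 in siNELF-E, limit their folds.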

Other observations

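The JNK and p38 cascades, which DUSP1 and DUSP10 also restrain, held 15 measured genes of 20 listed. MAP2K6, a kinase that activates p38, fell with siNELF-A (log2 change -1.44, limma adjusted p = 0.000814), with siNELF-B (-1.16, 0.00675), with siNELF-C (-1.02, 0.006) and with siNELF-E (-0.90, 0.0085), and each call was kept in all 19 settings tried. GADD45B, a stress-induced activator of p38 signalling, rose in siNELF-A (0.75, adjusted p = 0.0087), a call lost without siControl replicate 3 (0.0548). MAPK9, which encodes JNK2, fell in siNELF-C (-1.51, adjusted p = 0.0231), a call kept in 13 of 19 settings, and the p38 kinase MAPK13 in siNELF-C and siNELF-E (-0.66 and -0.67; adjusted p = 0.0434 and 0.0437), calls kept in 4 of 19 each. MAPK9 was also called lower with siNELF-A after quantile normalization (-0.83, adjusted p = 0.0263) and without siNELF-B replicate 2 (-1.03, 0.0199) or 3 (0.0149). With siNELF-B, MAPK9 (-1.43, adjusted p = 0.00163) and MAPK13 (-0.77, 0.00188) were called lower without siNELF-B replicate 2. MAPKAPK3 was not called, nor was ATF2, except lower with siNELF-B without siNELF-B replicate 2 (-1.13, adjusted p = 0.00181) and with siNELF-C without siNELF-B replicate 2 (-0.61, adjusted p = 0.0472) or 3 (0.0194), and in both without these 2 arrays (0.0131 and 0.00237). Calls in the list numbered 1 higher and 1 lower with siNELF-A (median of the list -0.25), 1 lower with siNELF-B (-0.36), 4 lower with siNELF-C (-0.22) and 2 lower with siNELF-E (0.14). Over all clusters 0.495% were called higher and 2.83% lower with siNELF-A, and 4.19% lower with siNELF-B, 5.3% with siNELF-C and 4.04% with siNELF-E. Without siNELF-B replicates 2 and 3, calls in the list numbered 3 with siNELF-A (10.3% of all clusters), 4 with siNELF-B (19.2%), 6 with siNELF-C (17.1%) and 4 with siNELF-E (10.7%).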
